A study of Mus musculus with 12 samples.

Results

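The genes described here are 42 mouse genes of mitosis and chromosome segregation, chosen by name: cyclins and their kinase, mitotic kinases, kinetochore and checkpoint proteins, condensin and chromatin proteins, spindle motors and cytokinesis factors. All 42 were among the 55291 symbols in the count files, and all 42 were among the 18147 genes with enough counts to be tested. RNA was sequenced from cells labelled as VE-cadherin-positive endothelium of bone marrow or lung of VECadCre-tdTomato mice, in which Cre recombinase is driven by the VE-cadherin promoter and switches on a red fluorescent protein. The AML groups came from mice that had received acute myeloid leukaemia (AML) cells in which 1 allele of the tumour suppressor Trp53 is the R172H mutant and the other is deleted, and the control groups from mice that had no transplant. The 12 low-input libraries formed 4 groups of 3, called marrow control and AML and lung control and AML, and all groups shared the VECadCre-tdTomato background. The age of the mice, the time after transplant, the pooling of mice and whether each library is a separate mouse are not stated in the labels. The p-values below therefore describe spread between libraries, which may be technical.

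In a dividing cell, cyclin B with the kinase Cdk1 drives entry into mitosis, condensins and topoisomerase II compact and untangle the chromosomes, and kinetochores tie each chromosome to the spindle. The spindle checkpoint holds the anaphase-promoting complex (APC/C) in check until every kinetochore is attached, after which Cdc20 activates that ubiquitin ligase, cyclin B is destroyed, sister chromatids part and the cell is divided by cytokinesis. Transcripts of most of these genes rise in G2 and mitosis and are low in resting cells, and in the marrow the abundant dividing cells include erythroid and myeloid precursors, while most adult endothelium is quiescent.

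Total counts lay between 12.8 and 39.2 M counts per library. The 10 endothelial markers summed to 102 to 146 CPM (counts per 1 M counts of the library) in marrow controls and 42.1 to 61.0 CPM in marrow AML, and Cdh5, which encodes VE-cadherin, was at 4.91 ± 1.51 CPM (SD, n = 3) and 0.634 ± 0.291 CPM (SD, n = 3) there. The defining markers of the labelled cell type were thus low in every marrow library, and the 10 erythroid markers summed to 21169 to 23260 CPM in marrow controls and 967 to 5013 CPM in marrow AML. In lung controls the endothelial markers summed to 1304 to 4961 CPM and in lung AML to 108 to 445 CPM, beside 147802 to 220627 CPM of 8 lung epithelium genes over both lung groups. In such bulk libraries, fewer cells of a type and less RNA per cell cannot be told apart.

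Mitotic genes are known to share promoter elements. The cell cycle genes homology region (CHR, searched as TTTGAA or TTCGAA) is bound by the MuvB core of the DREAM and B-MYB complexes, and the CCAAT box (CCAAT) by NF-Y. RefSeq windows of GRCm38.p6, from 250 bases before to 50 bases after the annotated start, were listed for 35 of the 42 genes. On either strand, a CHR was found in 27 of 35 windows (77.1%), against 14.5% of 12633 windows of tested genes and 19.4% of all 27025 windows. A CCAAT box was found in 26 of 35 (74.3%), against 38.2% of tested and 37.9% of all windows, and both in 24 of 35 (68.6%), against 6.05% and 7.70%. An E2F element (TTCCCGC) was found in 1 of 35 (2.86%), that of Ncapg, against 7.94% of tested and 4.66% of all windows. The 160 bases before the start are shown for 6 genes with both elements in the whole window, as the stretch that holds most of their matches, and for Birc5 as a window with neither. Capitals mark each CHR and each CCAAT box, read on either strand, and sequences run 5′ to 3′ on the strand of the gene.
Cdc20 (chr4:118437344-118437503, minus strand): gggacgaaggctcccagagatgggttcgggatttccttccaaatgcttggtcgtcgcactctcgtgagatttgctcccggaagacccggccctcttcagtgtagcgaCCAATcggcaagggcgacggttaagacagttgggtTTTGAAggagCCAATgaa
Cdk1 (chr10:69352913-69353072, minus strand): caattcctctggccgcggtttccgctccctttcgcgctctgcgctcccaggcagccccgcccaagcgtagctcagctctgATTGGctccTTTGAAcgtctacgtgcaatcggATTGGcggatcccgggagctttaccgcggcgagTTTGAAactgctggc
Top2a (chr11:99024190-99024349, minus strand): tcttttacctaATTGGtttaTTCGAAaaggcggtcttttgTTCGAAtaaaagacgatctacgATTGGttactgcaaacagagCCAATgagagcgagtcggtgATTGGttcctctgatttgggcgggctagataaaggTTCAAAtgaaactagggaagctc
Mki67 (chr7:135716380-135716539, minus strand): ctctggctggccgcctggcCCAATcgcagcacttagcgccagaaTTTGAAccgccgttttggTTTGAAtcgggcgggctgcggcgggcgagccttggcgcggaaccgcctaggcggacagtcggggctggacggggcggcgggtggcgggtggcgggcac
Ncapg (chr5:45669765-45669924, plus strand): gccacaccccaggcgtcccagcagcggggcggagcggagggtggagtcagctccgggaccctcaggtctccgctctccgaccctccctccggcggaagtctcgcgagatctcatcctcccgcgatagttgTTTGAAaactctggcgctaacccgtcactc
Kif11 (chr19:37376222-37376381, plus strand): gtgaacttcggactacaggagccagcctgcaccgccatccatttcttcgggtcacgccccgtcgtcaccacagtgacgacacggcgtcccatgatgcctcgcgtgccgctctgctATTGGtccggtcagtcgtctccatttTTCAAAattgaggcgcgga
Birc5 (chr11:117849077-117849236, plus strand): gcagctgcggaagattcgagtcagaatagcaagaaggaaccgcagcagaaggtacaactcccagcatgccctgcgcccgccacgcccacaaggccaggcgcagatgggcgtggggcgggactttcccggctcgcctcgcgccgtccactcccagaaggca

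In Cdc20 the CHR began 18 bases before the start, with CCAAT boxes beginning at 53 and 8 bases before it. In Cdk1, CHR matches began 71 and 15 bases and CCAAT boxes 80 and 48 bases before the start, with another box further out at 208 bases, and Kif11 had a CCAAT box at 45 and a CHR at 19 bases before it. Ncapg had its CHR at 30 bases before the start and its CCAAT box further out, at 176 bases, beyond the printed stretch. Windows of Ndc80, Kif2c and Anln held a CHR and no CCAAT box, those of Ccnb1 and Cenpe a CCAAT box and no CHR, and those of Birc5, Aunip, Mad2l1, Nuf2, Ncaph and Nusap1 neither. A match is a description of letters and not a measured site.

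**Figure D1:**
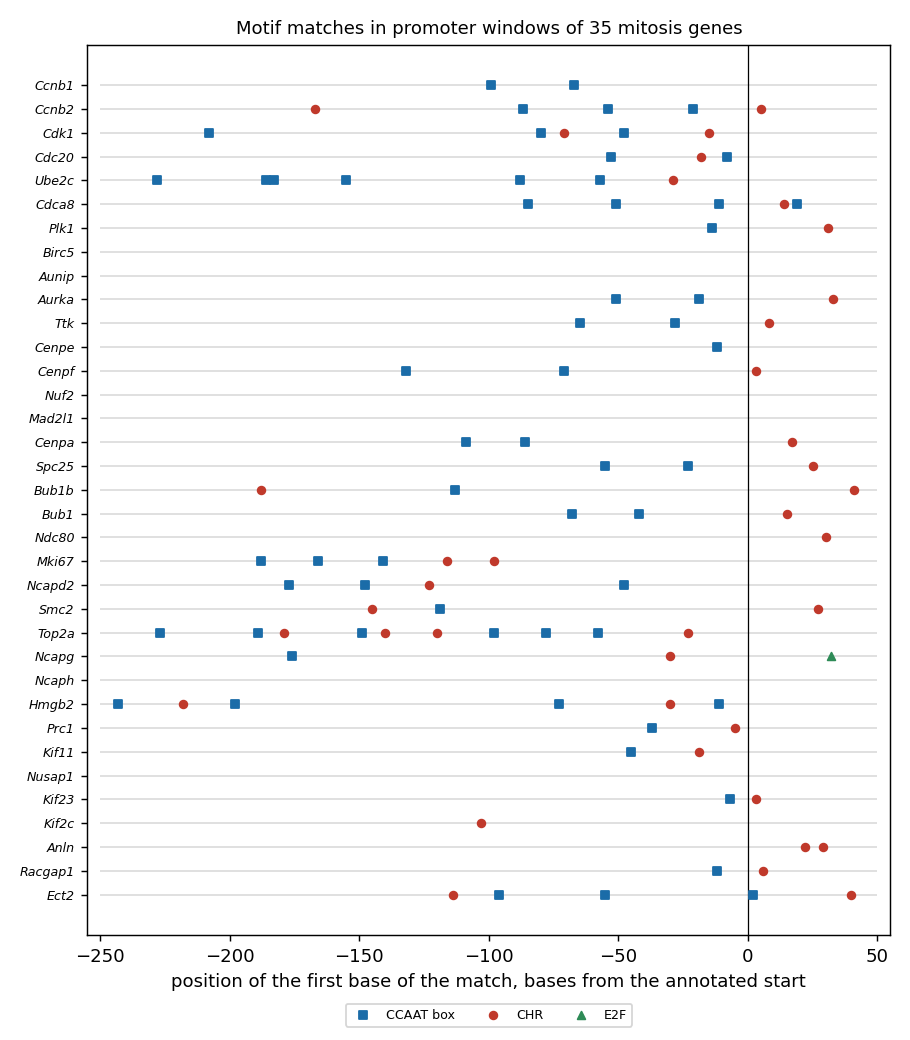
Matches of the CCAAT box, the CHR and the E2F element in the promoter windows of 35 mitosis genes. The x axis gives the first base of each match in bases from the annotated start, and each row is a gene. Matches of both elements are seen in 24 of the 35 rows, and the 1 E2F match is that of Ncapg.

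The 42 genes together held 1.47%, 1.34% and 1.37% of all counts in marrow control libraries 1, 2 and 3, and 0.389%, 0.327% and 0.219% in marrow AML libraries 1, 2 and 3. Exact Clopper-Pearson 95% intervals, which cover counting error only, were narrow at this depth, for example 0.217% to 0.221% in marrow AML library 3. The marrow groups did not overlap, and the mean share was 4.47-fold higher in marrow controls (1.39% ± 0.0709, SD, n = 3) than in marrow AML (0.312% ± 0.0859, SD, n = 3). In the lung the share was 0.0253%, 0.0378% and 0.0281% in controls and 0.0615%, 0.0273% and 0.0363% in AML. The lung groups overlapped, at means of 0.0304% ± 0.00656 (SD, n = 3) and 0.0417% ± 0.0177 (SD, n = 3), and lung AML library 1 stood highest. The mean share in marrow controls was 45.8-fold that in lung controls, and in marrow AML 7.47-fold that in lung AML. With the 100 most abundant genes of each library left out, these ratios were 32.7-fold and 5.74-fold, and the lung shares 0.0457% and 0.0671%.

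**Figure D2:**
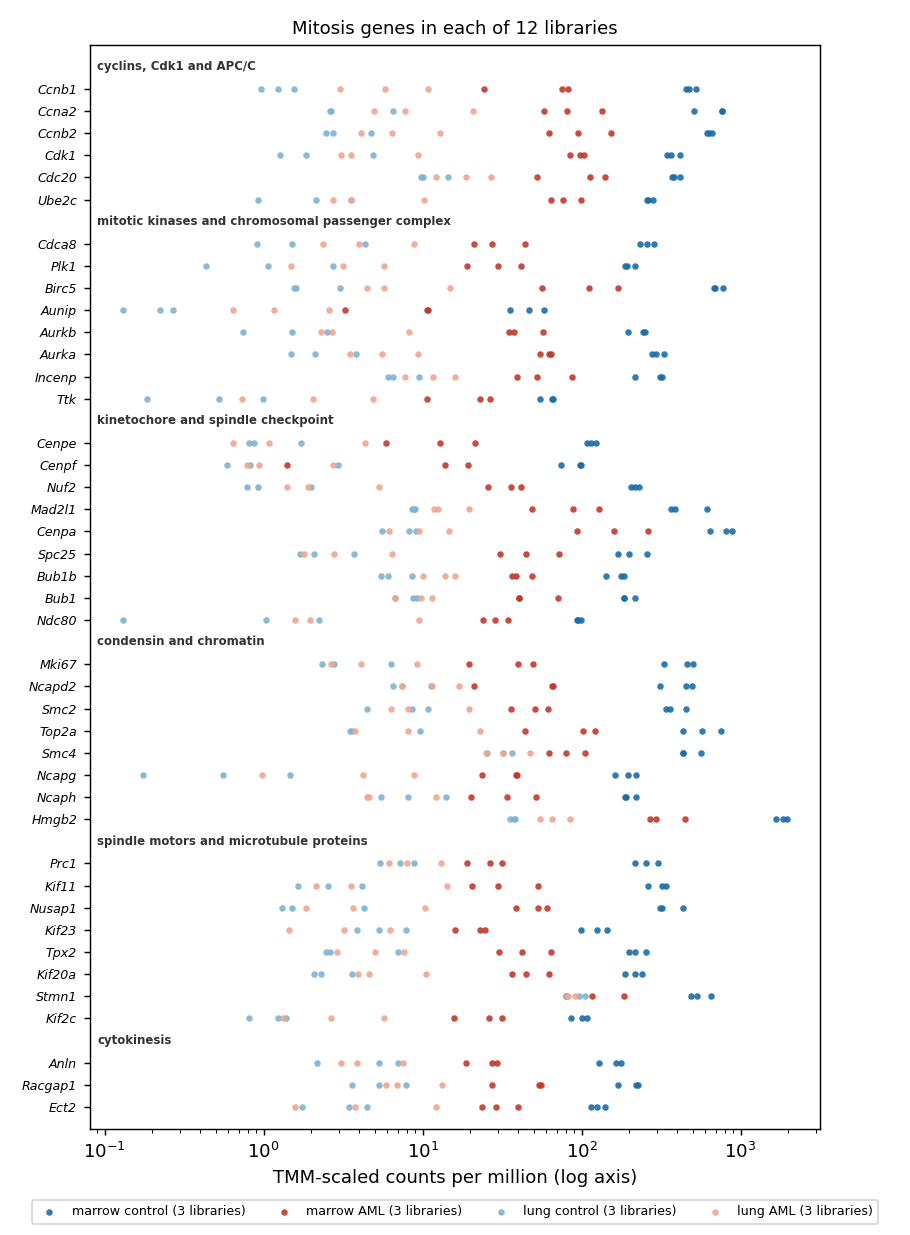
Levels of the 42 genes in TMM-scaled CPM on a log x axis, with 1 row per gene, grouped by role, and 1 point per library. In every row the 3 marrow control points lie to the right of the 3 marrow AML points, and the lung points lie furthest left except for Stmn1, whose lung points reach the marrow AML range, and Cenpf.

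Levels of different genes were compared only per length, as TPM (transcripts per 1 M transcripts) computed from the counts and the exon bases of each gene. In marrow controls Hmgb2, a DNA-bending chromatin protein, was highest at 1685 ± 67.9 TPM (SD, n = 3), followed by Ccnb2, which encodes cyclin B2, at 1150 ± 94.9 TPM (SD, n = 3), and by Stmn1, which encodes the microtubule destabiliser stathmin, at 801 ± 96.3 TPM (SD, n = 3). These 3 did not overlap their next neighbour in the order. Birc5 (survivin) at 584 ± 42.2 TPM (SD, n = 3) and Cdc20 at 576 ± 41.2 TPM (SD, n = 3) followed and overlapped each other. Of the 41 neighbouring pairs in the order, 4 did not overlap in marrow controls, 0 of 41 in marrow AML, 3 in lung controls and 2 in lung AML. Cenpf, a large kinetochore protein, had the lowest mean in each of the 4 groups, at 16.3 ± 3.18 TPM (SD, n = 3) in marrow controls. Outside the marrow controls it overlapped its neighbour in the order. The exon bases join all annotated exons of a gene, so the order depends on that annotation. The median level of the 42 was 144 TPM in marrow controls, 34.9 TPM in marrow AML, 1.59 TPM in lung controls and 3.01 TPM in lung AML. In both lung groups Stmn1 was the highest, at 114 ± 18.5 TPM (SD, n = 3) in controls and 94.2 ± 9.03 TPM (SD, n = 3) in AML, and Hmgb2 was next.

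The first comparison asked how these genes differed in the marrow between mice with and without AML. Of the 42, 40 fell and 0 rose by the edgeR quasi-likelihood test at an adjusted p under 0.05, where 23.5% of all genes tested were called lower and 20.4% higher. In all 42 the 3 marrow AML libraries lay below the 3 marrow controls, as they did in 27.5% of genes tested. All 42 had an unadjusted p under 0.05, for which the share over all genes was not computed. The median log2 fold change was −2.50 over the 42 and −0.11 over all genes tested. At least a 4-fold lower level was fitted for 36 genes and at least an 8-fold lower level for 6. The 2 genes not called were Ttk and Ndc80.

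Among the cyclins, Cdk1 and APC/C factors, 6 of 6 fell, with a median log2 fold change of −2.30. Ccnb1, which encodes cyclin B1, was at 476, 453 and 522 CPM (TMM-scaled, as are all levels in CPM of single genes) in marrow control libraries 1, 2 and 3 and at 82.6, 75.0 and 24.4 CPM in marrow AML libraries 1, 2 and 3. AML library 3 was the lowest and the groups were far apart, with a log2 fold change of −2.997 ± 0.49 (SE) and an adjusted p of 0.000651. Ccna2, which encodes the S and G2 phase cyclin A2, was at 760, 761 and 511 CPM in controls and 135, 80.5 and 58.2 CPM in AML (log2 −2.90 ± 0.55 SE, adjusted p = 0.00157). Ccnb2 was at 637, 612 and 658 CPM in controls and 154, 95 and 62.2 CPM in AML (log2 −2.62 ± 0.43 SE, adjusted p = 0.000710). Both cyclins had their highest AML value in library 1 and their lowest in library 3. Cdk1, their catalytic partner, was at 345, 365 and 417 CPM in controls and 103, 85.2 and 97.9 CPM in AML (log2 −1.98 ± 0.47 SE, adjusted p = 0.00575). Cdc20, the APC/C activator, was at 384, 415 and 368 CPM in controls and 141, 112 and 52.8 CPM in AML (log2 −1.93 ± 0.36 SE, adjusted p = 0.00140). The fitted fall of these kinase and APC/C factors was under 4-fold, as was that of Ube2c, the ubiquitin-conjugating enzyme of the APC/C (log2 −1.75 ± 0.49 SE, adjusted p = 0.0132).

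Of the 8 mitotic kinase and chromosomal passenger genes, 7 fell. The passenger complex brings the kinase Aurkb to centromeres and the midzone through its scaffold Incenp with Birc5 and Cdca8 (borealin). Aurkb was at 249, 244 and 196 CPM in controls and 35, 57.6 and 37.7 CPM in AML (log2 −2.40 ± 0.48 SE, adjusted p = 0.00224). Birc5 was at 681, 694 and 780 CPM in controls and 170, 112 and 56.1 CPM in AML (log2 −2.67 ± 0.49 SE, adjusted p = 0.00132). Incenp was at 313, 318 and 217 CPM in controls and 87.6, 52.7 and 39.4 CPM in AML (log2 −2.24 ± 0.35 SE, adjusted p = 0.000463). Of the 4 complex members, Cdca8 had the lowest fitted value, at −3.07 ± 0.57 (SE, adjusted p = 0.00136). Aurka, the centrosomal Aurora kinase, was at 329, 279 and 294 CPM in controls and at 54.6, 64.5 and 62.3 CPM in AML, a narrow range in both groups (log2 −2.32 ± 0.36 SE, adjusted p = 0.000463). Plk1, a kinase of centrosome maturation and mitotic entry, was at 218, 192 and 188 CPM in controls and 41.4, 29.8 and 19.0 CPM in AML (log2 −2.73 ± 0.56 SE, adjusted p = 0.00243). Aunip, an Aurora A-interacting protein, was lowest in AML library 1, at 47.0, 58.2 and 35.4 CPM in controls and 3.24, 10.6 and 10.9 CPM in AML (log2 −2.50 ± 0.55 SE, adjusted p = 0.00373). Ttk, the kinase Mps1 that starts checkpoint signalling, was likewise lowest in AML library 1, at 65.7, 64.8 and 55 CPM in controls and 10.6, 22.8 and 26.4 CPM in AML. Its fitted value was −1.63 ± 0.61 (SE) with an adjusted p of 0.0502, and DESeq2 called it.

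Of the 9 kinetochore and checkpoint genes, 8 fell. Bub1b (BubR1), a checkpoint protein that holds back Cdc20, was at 186, 177 and 142 CPM in controls and 38.8, 49.0 and 36.7 CPM in AML (log2 −2.02 ± 0.23 SE, adjusted p = 8.92e-05). Cenpa, the centromeric histone H3 variant, was at 647, 811 and 882 CPM in controls and 263, 160 and 93.3 CPM in AML (log2 −2.18 ± 0.39 SE, adjusted p = 0.00112). Ndc80, the microtubule-binding subunit of the outer kinetochore, was at 98.8, 93.6 and 94.3 CPM in controls and 28.5, 34.5 and 23.9 CPM in AML. The groups of Ndc80 were well apart, and the model of all 12 libraries gave −1.72 ± 0.72 (SE) with an adjusted p of 0.0719; in a fit of the 6 marrow libraries alone Ndc80 and Ttk were both called. Nuf2 and Spc25, subunits of the same complex, fell, at log2 values of −2.66 and −2.09, and so did the checkpoint proteins Mad2l1 and Bub1, at −2.36 and −1.95. Cenpe, a kinetochore motor, and Cenpf had the lowest fitted values of this group, at −3.11 ± 0.65 (SE, adjusted p = 0.00267) and −2.98 ± 0.84 (SE, adjusted p = 0.0145). Cenpf ranged from 19.3 CPM in AML library 1 to 1.4 CPM in AML library 3, and was the most uneven of the 42 in the marrow AML group.

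All 8 condensin and chromatin genes fell, with a median log2 fold change of −2.63. Mki67, which encodes the proliferation marker Ki-67, a coat of mitotic chromosomes, was at 502, 458 and 329 CPM in controls and 49.5, 39.9 and 19.6 CPM in AML. Its log2 fold change of −3.57 ± 0.53 (SE, adjusted p = 0.000393) was the lowest of the 42, an 11.8-fold lower level. Top2a, the topoisomerase that untangles sister chromatids, was at 753, 574 and 435 CPM in controls and 103, 121 and 43.8 CPM in AML (log2 −2.72 ± 0.64 SE, adjusted p = 0.00563). Smc2 and Smc4 form the core of condensin, the ring that compacts mitotic chromosomes, and Ncapg, Ncapd2 and Ncaph are subunits of condensin I. Smc2 was at 451, 361 and 342 CPM in controls and 61.4, 50.8 and 36 CPM in AML (log2 −2.96 ± 0.44 SE, adjusted p = 0.000367). Smc4 was at 564, 435 and 433 CPM in controls and 106, 62.2 and 79.5 CPM in AML (log2 −2.53 ± 0.27 SE, adjusted p = 6.08e-05). Ncapd2 was at 457, 494 and 313 CPM in controls and 66.0, 64.9 and 21.0 CPM in AML (log2 −3.06 ± 0.45 SE, adjusted p = 0.000366). AML library 3 was lowest for Smc2 and Ncapd2, and AML library 2 for Smc4. Ncapg was at 221, 196 and 161 CPM in controls and 39, 38.5 and 23.6 CPM in AML (log2 −2.52 ± 0.65 SE, adjusted p = 0.00909), and Ncaph fell to a log2 value of −2.50. Hmgb2 was at 1678, 1861 and 1962 CPM in controls and 444, 296 and 271 CPM in AML, and had the smallest p of the 42 genes (log2 −2.44 ± 0.22 SE, adjusted p = 2.62e-05).

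All 8 spindle motor and microtubule genes fell as well, with a median of −2.41. Kif11 (Eg5), the motor that pushes spindle poles apart, was at 340, 319 and 263 CPM in controls and 29.9, 20.4 and 52.9 CPM in AML (log2 −3.16 ± 0.64 SE, adjusted p = 0.00220), and was highest in AML library 3, in contrast to most of the genes. Prc1, which bundles midzone microtubules, fell by 3.33 ± 0.31 on the log2 scale (SE, adjusted p = 3.04e-05), a 10.1-fold lower level. Stmn1 was at 491, 535 and 650 CPM in controls and 184, 116 and 79.7 CPM in AML (log2 −2.14 ± 0.27 SE, adjusted p = 0.000144). The motors Kif20a, Kif23 and Kif2c fell, at log2 values of −2.16, −2.54 and −2.01, and so did the spindle assembly factors Tpx2 and Nusap1, at −2.29 and −2.81. The 3 cytokinesis genes fell too. Anln, which encodes the contractile ring scaffold anillin, was at −2.64, Racgap1 at −2.18 and Ect2, the exchange factor that activates RhoA at the midzone, at −2.05 on the log2 scale.

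**Figure D3:**
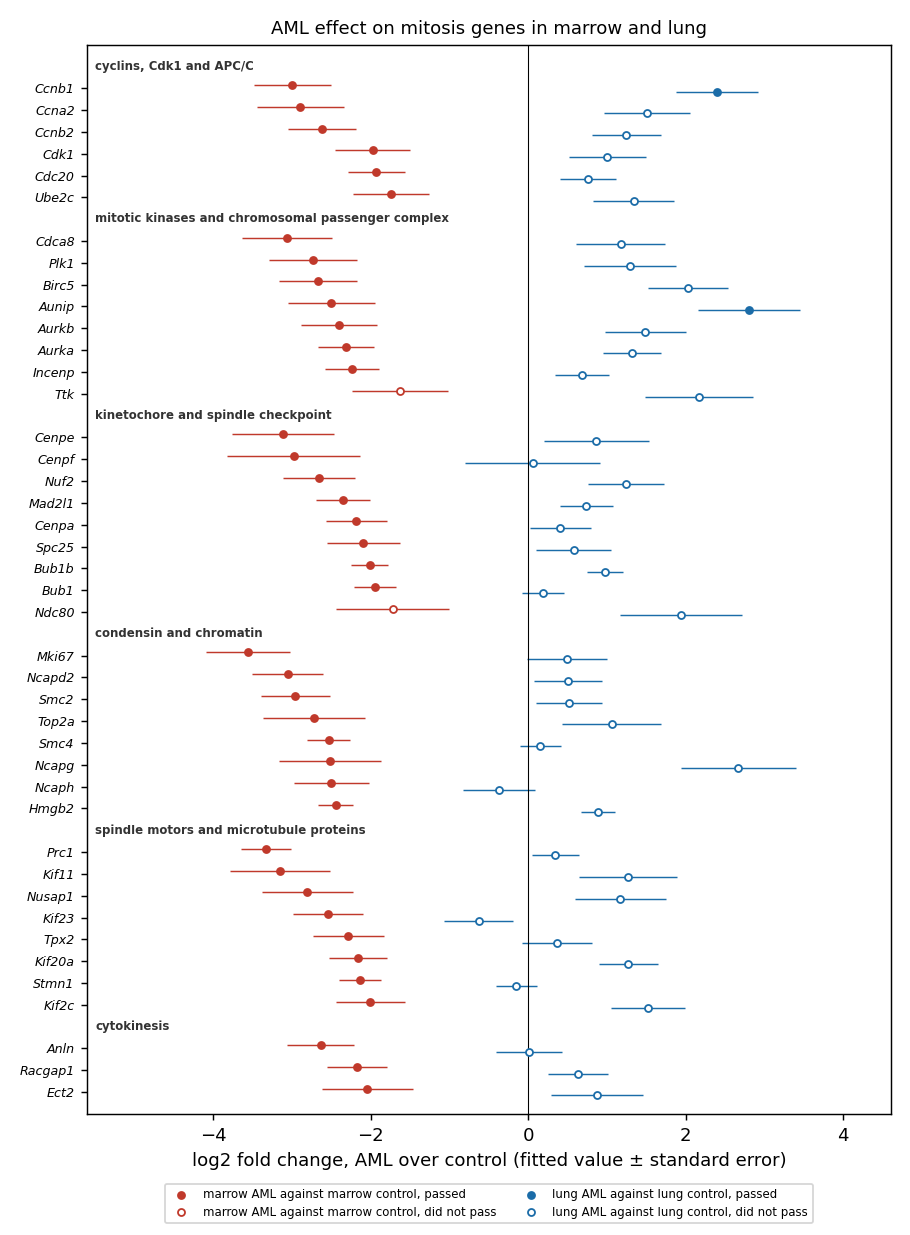
Fitted log2 fold change of AML over control with its standard error for the 42 genes, in marrow (red) and lung (blue), grouped by role. Filled points passed the adjusted p of 0.05. The marrow points lie between −3.57 and −1.63, and 39 of the 42 lung points lie above 0 with 2 of them filled.

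Other cell types moved in the same libraries. The 10 erythroid markers all fell in the marrow, with a median log2 fold change of −4.05, and their sums were 5013, 1726 and 967 CPM of all counts in marrow AML libraries 1, 2 and 3, the same order as the sums of the 42 mitosis genes (3889, 3268 and 2192 CPM). No erythroid marker was at 0 in any group. The 20 DNA replication genes also all fell, with a median of −2.75, and Mcm7, a subunit of the replicative helicase, fell by 2.83 ± 0.23 (SE, adjusted p = 1.88e-05). Of 8 pericyte and smooth muscle markers, 8 rose, from sums of 185 to 658 CPM in controls to 3169 to 10729 CPM in AML. Pan-leukocyte markers summed to 256 to 285 CPM in controls and 476 to 693 CPM in AML, with 6 of 8 higher and 1 lower. Neutrophil and myeloid progenitor markers summed to 23.5 to 372 CPM and 18.1 to 214 CPM, with 1 of 10 lower. Of this list Elane, Ctsg, Ms4a3, Camp and Ltf were at 0 in at least 1 marrow AML library, and Ltf also in at least 1 marrow control library. The part of these lists in the fall of the mitosis genes was not tested.

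**Figure D4:**
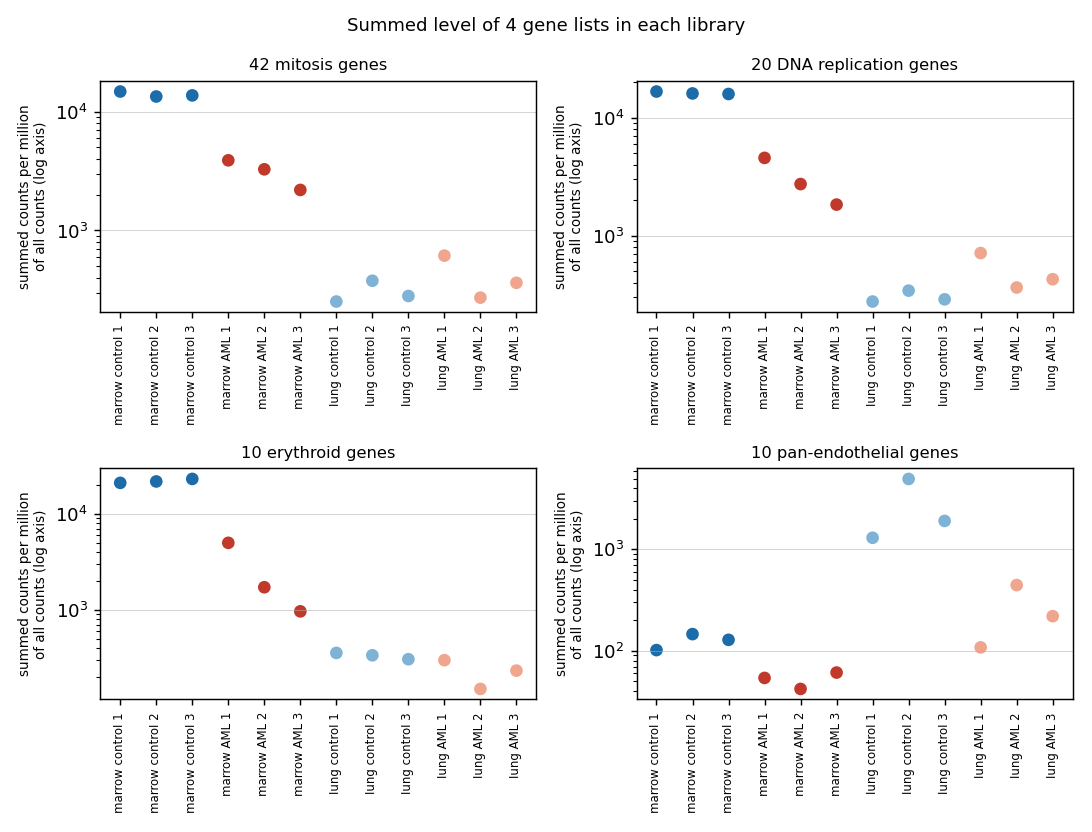
Summed CPM of all counts in each of the 12 libraries for the 42 mitosis genes, 20 DNA replication genes, 10 erythroid genes and 10 endothelial genes, each on a log y axis. In the marrow the first 3 lists drop from control to AML and share their library order within the AML group, while the endothelial sums are highest in the lung controls, at 1304 to 4961 CPM.

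In the lung, Ccnb1 and Aunip rose in AML and 0 of the 42 fell, where 1.17% of genes tested were called higher and 1.16% lower. DESeq2 called 11 of the 42 higher, and 724 of all 18147 genes tested. Unadjusted p was under 0.05 for 17 of the 42. For this and the later counts at an unadjusted p, the share over all genes was not computed. In 7 of 42 (Ccnb1, Birc5, Aunip, Bub1b, Mad2l1, Hmgb2 and Kif20a) the AML libraries all lay above the controls, as in 18.2% of all genes tested, so this count was no higher than the background. The fitted log2 fold change was positive for 39 of the 42, with a median of 0.93 against 0.00 over all genes tested. Lung AML library 1 was the highest AML library for all 42 genes and library 2 the lowest for 37.

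Levels in the lung were low. Ccnb1 was at 1.57, 1.23 and 0.962 CPM in lung controls and 10.7, 3.04 and 5.83 CPM in lung AML, from 36, 32 and 26 counts and 389, 71 and 140 counts (log2 2.39 ± 0.52 SE, adjusted p = 0.0387). Aunip was at 0.130, 0.269 and 0.222 CPM in controls, from 3, 7 and 6 counts, and at 2.60, 0.642 and 1.17 CPM in AML, from 94, 15 and 28 counts (log2 2.80 ± 0.64 SE, adjusted p = 0.0482). Both genes were highest in AML library 1, and neither group overlapped the other. Birc5 was at 1.61, 3.03 and 1.55 CPM in controls and 14.9, 4.49 and 5.74 CPM in AML (log2 2.03 ± 0.51 SE, adjusted p = 0.0649). Bub1b was at 6.04, 8.64 and 5.51 CPM in controls and 15.9, 10.1 and 13.8 CPM in AML (log2 0.98 ± 0.23 SE, adjusted p = 0.0543). Hmgb2 was at 38.2, 37.8 and 35.6 CPM in controls and 85.2, 55.2 and 65.3 CPM in AML (log2 0.88 ± 0.22 SE, adjusted p = 0.0594). For these 3 genes the groups did not overlap and the test was not passed. Mki67, at 2.78, 6.34 and 2.33 CPM in controls and 9.23, 2.65 and 4.12 CPM in AML, overlapped (log2 0.49 ± 0.51 SE, adjusted p = 0.756), and so did Top2a (log2 1.06 ± 0.63 SE), Plk1 (1.30 ± 0.58), Aurkb (1.49 ± 0.51) and Smc2 (0.52 ± 0.42). Stmn1 was at 79.6, 105 and 96.9 CPM in controls and 90.7, 82.3 and 80.5 CPM in AML (log2 −0.15 ± 0.26 SE, adjusted p = 0.888). Further members with small p, at log2 values of 2.67 ± 0.73 for Ncapg, 1.32 ± 0.37 for Aurka, 1.27 ± 0.37 for Kif20a, 1.51 ± 0.47 for Kif2c, 2.17 ± 0.69 for Ttk and 1.25 ± 0.43 for Ccnb2, did not pass.

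The lung calls depended on single libraries and on the tool, since limma-voom called Bub1b and Hmgb2 and not Ccnb1 or Aunip. Without lung AML library 1, the most deeply counted of the 12 at 39.2 M counts, 0 of the 42 were called (10 at an unadjusted p under 0.05), the median log2 fold change was 0.36, and 29 were positive and 13 negative. Leaving out lung control library 1, 2 or 3 or lung AML library 3 also left 0 called, with 11, 26, 11 and 19 at an unadjusted p under 0.05, and leaving out lung AML library 2 gave 5 called. The fitted values stayed positive, at 1.83 to 2.81 for Ccnb1 and 2.09 to 3.22 for Aunip over the 6 libraries left out, and the median of the 42 was 0.76, 1.25, 0.84 and 1.14 without those 4 libraries. Beside these values, the erythroid transcription factor Klf1 rose in lung AML, from 18, 18 and 20 counts in controls to 635, 125 and 233 counts in AML libraries 1, 2 and 3, or from 0.738 ± 0.0456 to 10.9 ± 6.18 CPM (SD, n = 3; log2 3.88 ± 0.42 SE, adjusted p = 0.00239). Gata1, picked out after its value was seen, rose by 3.67 (adjusted p = 0.00366), and the other 8 erythroid genes, globins included, did not pass. The sum of the erythroid list was 306 to 356 CPM in lung controls and 150 to 299 CPM in lung AML. Klf1 and the summed CPM of the 42 mitosis genes had the same order of AML libraries, 1 above 3 above 2, as did 37 of the genes singly. Neutrophil and myeloid progenitor markers summed to 55.1 to 133 CPM in lung controls and 103 to 370 CPM in lung AML. Elane and Ms4a3 were at 0 in all 3 controls. The fitted log2 fold changes of this list ran from 0.71 to 9.35, with a median of 6.95, and 0 of 10 were called. Endothelial sums were lowest in AML library 1, at 108 CPM. The part of these in the lung values was not tested.

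The difference between the AML effects in marrow and lung was tested as an interaction. It was negative for all 42 and passed for 41, where 16.1% of all genes tested were called lower, and the median difference was −3.50. Cenpf, at −3.03 ± 1.18 (SE, adjusted p = 0.0742), did not pass. The most negative differences were those of Ccnb1 (−5.39 ± 0.71 SE, adjusted p = 0.000412) and Aunip (−5.30 ± 0.85 SE, adjusted p = 0.00115), the 2 genes called in opposite directions in the 2 tissues. Mki67 differed by −4.06 ± 0.72 (SE, adjusted p = 0.00205) and Stmn1 by −1.99 ± 0.37 (SE, adjusted p = 0.00243).

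Between the tissues of control mice all 42 genes were higher in marrow, where 29.4% of genes tested were called higher, and in all 42 the groups did not overlap, against 34.3% of all genes lying wholly above the lung. The median log2 difference was 6.41. Ccnb1 differed most, at 8.59 ± 0.64 (SE, adjusted p = 1.33e-06), Plk1 and Aurkb differed by 7.13 and 7.17, Mki67 by 6.81 and Top2a by 6.71. Stmn1 differed least, at 2.57 ± 0.27 (SE, adjusted p = 1.21e-05), followed by Smc4 at 3.93 ± 0.29 (SE, adjusted p = 1.28e-06). Between the AML groups the order of tissues was the same and the differences were smaller in size, with a median of 2.74. There 41 of 42 were called higher in marrow, where 22.4% of genes tested were, and 40 did not overlap, against 26.2%. Cdk1 had the largest fitted difference, at 4.15 ± 0.52 (SE, adjusted p = 0.000108), followed by Cenpa at 4.08 ± 0.43 (SE, adjusted p = 3.85e-05). Stmn1 did not pass, at 0.58 ± 0.26 (SE, adjusted p = 0.0849), with marrow AML libraries at 184, 116 and 79.7 CPM and lung AML libraries at 90.7, 82.3 and 80.5 CPM. These comparisons share libraries with the AML comparisons and are not independent of them.

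The 42 genes moved together from library to library in the lung AML group, and less evenly in the other groups. Relative to the mean log2 level of its group, the median gene lay at 0.86 in lung AML library 1, at −0.64 in library 2 and at −0.14 in library 3, with all 42 above the mean in library 1 and 0 above it in library 2. Lung control library 2 lay at 0.51 and was highest for 36 genes. In the marrow AML group the medians were 0.34, 0.19 and −0.44, and library 3 was lowest for 30 genes, Ttk, Aunip, Bub1, Kif11 and Kif20a being among those that were highest there. Single genes ran from −1.06 to 1.28 in marrow AML library 1, and 20 of the 42 lay above the group mean in marrow control library 2. The marrow controls were closest, at medians of 0.14, 0.00 and −0.15, with library 1 highest for 27 genes and library 3 lowest for 30. Over all genes tested the corresponding medians ranged from −0.06 in marrow control library 3 to 0.05 in marrow control library 2.

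Part of the spread among marrow controls went with transcript length. Exon bases ran from 1275 in Aunip to 15433 in Cenpf, with a median of 4798. Across the 42 genes, which are not independent replicates and share each library, the deviation of marrow control library 1 had a Spearman correlation of 0.42 with length and that of library 3 of −0.35, and over 17765 genes the values were 0.27 and −0.28. The median deviation of the 21 shortest and 21 longest genes was 0.13 and 0.15 in library 1, and −0.08 and −0.16 in library 3. Mad2l1, Nuf2, Cenpa and Cdk1 went the other way, being longer than the median and highest in library 3. Aurka, Aurkb, Plk1 and Ube2c, among others, also did, being shorter than the median and highest in library 1. The marrow fold change had a Spearman correlation of −0.36 with length over the 42 and 0.00 over all genes, and the median was −2.32 for the 21 shortest genes and −2.64 for the 21 longest. By promoter element, the median marrow value was −2.48 for the 24 genes with CHR and CCAAT box, −2.64 for the 5 with 1 of these and −2.58 for the 6 with neither. Counting ignored strand, and 12 of the 42 genes share exon bases with another gene, 9 of them on the opposite strand, such as Kif20a with Cdc23 (1271 bases) and Ncapg with Lcorl (944 bases). Reads within the shared bases cannot be told apart, and these bases can be few, as the 53 of 1868 in Cdc20. How the counter treated such reads is not stated. Of the 30 genes with no shared exon bases 28 were called lower in marrow.

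**Figure D5:**
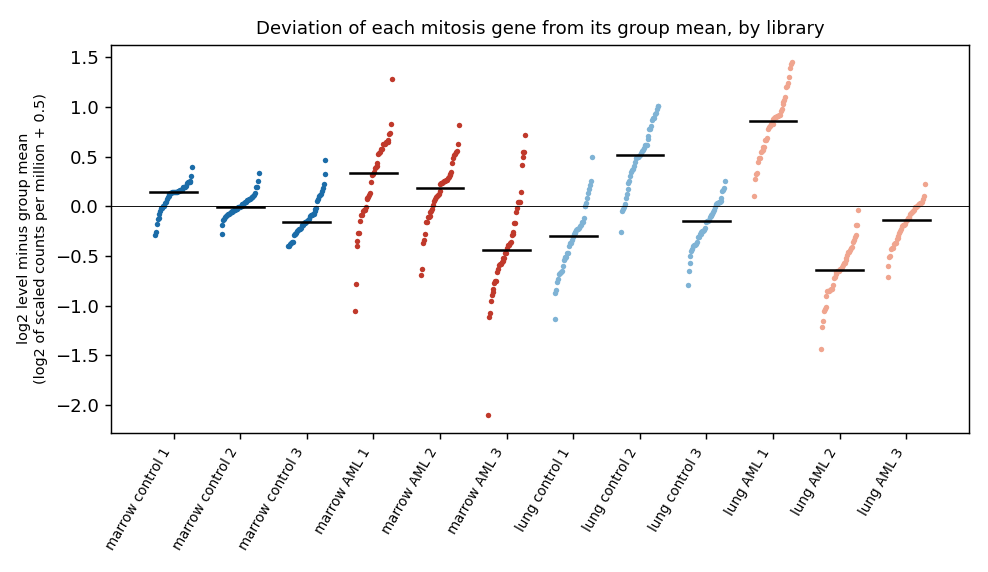
Deviation of each of the 42 genes from its group mean, as log2 of scaled CPM plus 0.5, in each of the 12 libraries, with a bar at the median. Lung AML library 1 lies wholly above 0 and library 2 wholly below it, at medians of 0.86 and −0.64, and marrow controls lie closest to 0.

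Other genes of the same machinery were listed by function, with earlier results of these data known. They were read in the marrow comparison, where, as above, 23.5% of all genes tested were called lower and 20.4% higher. All 34 further kinetochore and checkpoint genes fell, at a median log2 value of −2.05, led by p value by Cenpl, Oip5 and Hjurp, the loading factor of Cenpa, at −2.58 ± 0.27, −2.69 ± 0.34 and −2.07 ± 0.28 (SE). All 3 subunits specific to condensin II fell, with Ncapd3 at −3.58, Ncapg2 at −3.40 and Ncaph2 at −1.35 on the log2 scale. Of 31 further cyclin, Cdk1 regulator and APC/C genes, 19 fell and 1 rose: Cdc25b, the phosphatase that activates Cdk1, was at −2.999, Ccnf (cyclin F) at −3.11 and Fbxo5, the APC/C inhibitor Emi1, at −2.89 on the log2 scale, while the APC/C subunit Anapc4 rose by 0.34 (adjusted p = 0.0470). Of 14 cohesin and separase genes, 12 fell and 1 rose. Cohesin holds sister chromatids together until separase cuts it, and its subunits Rad21 and Smc1a and its release factor Wapl fell, at −1.88, −1.31 and −1.99. Pttg1, which encodes the separase inhibitor securin, rose by 0.69 ± 0.25 (SE, adjusted p = 0.0438), from 32.2, 31.2 and 38.3 CPM in controls to 44.2, 44.2 and 74.9 CPM in AML.

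Of 35 further spindle, centrosome and cytokinesis genes, 31 fell and 1 rose. The gamma-tubulin Tubg1, the motor Kif18a and the microtubule polymerase Ckap5 fell, at log2 values of −1.55, −2.66 and −2.14. Cep55, a midbody protein of the last step of cytokinesis, rose by 5.07 ± 1.18 (SE, adjusted p = 0.00509), from 13, 2 and 1 counts in marrow controls to 15, 355 and 351 counts in marrow AML libraries 1, 2 and 3. The rise rested on AML libraries 2 and 3, since library 1, at 0.971 CPM, was close to the highest control at 0.605 CPM. Of 14 transcription factor and DREAM or MuvB genes, 10 fell and 1 rose. E2f4, Lin54 and Tfdp1 fell, at −2.45, −1.67 and −1.97, and E2f5 rose by 1.02 (adjusted p = 0.0283). Foxm1 and Mybl2 (B-MYB), the activators of the G2 and M programme, were picked out after their values were seen, and fell, at −3.03 ± 0.51 and −2.88 ± 0.46 (SE). Anapc4, Pttg1 and E2f5 each lost their call without marrow control library 1 or 2 or without marrow AML library 3, and none of the 3 passed against a 1.5-fold change. Anapc4 and Pttg1 also lost it without marrow control library 3, Anapc4 without marrow AML library 1 and E2f5 without marrow AML library 2. Their fitted values stayed positive, at log2 values of 0.29 to 0.40, 0.39 to 0.82 and 0.81 to 1.39 over the libraries left out.

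Of 15 genes of G1 and of cell cycle exit, 6 fell and 5 rose in marrow AML, with a median log2 value of −0.17, where 23.5% and 20.4% of all genes tested did. Ccnd3 (cyclin D3) fell by 3.02 ± 0.23 (SE, adjusted p = 1.61e-05), from 1488, 1490 and 1130 CPM to 230, 147 and 129 CPM. Ccnd2 (cyclin D2) rose by 2.69 ± 0.28 (SE, adjusted p = 5.02e-05), from 30.6, 14.0 and 19.7 CPM to 123, 113 and 178 CPM. The groups of both D-type cyclins were far apart. Cdkn1a, which encodes the Cdk inhibitor p21, rose by 2.44 ± 0.27 (SE, adjusted p = 7.48e-05), from 51.7, 39.9 and 61.5 CPM to 211, 268 and 349 CPM. Cdkn1c (p57), Ccng2 and the antiproliferative gene Btg1 rose by 2.33, 1.95 and 1.70. By the naming rule all 5 rises are named here, and of the 6 falls only Ccnd3. Fitted values of the list ran from −3.08, in a gene not named, to 2.69, and 4 of the 15 were not called. The list was thus split in direction. In the lung 0 of these 15 passed. Of the 34 kinetochore genes, Spc24, Cenpk, Cenpn, Cenpw and Oip5 rose in lung AML by 1.62 to 2.34 on the log2 scale, where 1.17% of all genes tested were called higher, as did Mcm7 of the 20 replication genes by 1.12 (adjusted p = 0.0250) and Rbl2 of the 14 transcription factor genes by 0.95 (adjusted p = 0.0207). Like those of Ccnb1 and Aunip, these 7 lung calls were lost when single libraries were left out: all 7 without lung AML library 1 and without lung control library 1 or 2, 6 without lung AML library 3 and 4 without lung control library 3. The fitted values stayed positive, for example at 1.37 to 2.07 for Cenpw and 0.94 to 1.24 for Mcm7 over the libraries left out.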

How the data were processed

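Counts were deposited by the authors as 1 whole-number raw count per gene symbol and library, with no normalisation; bcl2fastq and STAR with the mm10 build were used, per the submitters' processing notes, and counted without regard to strand, per the file names. Sources used here give no versions, counter or annotation. Counts were tested in R 4.3.3 with the edgeR 4.0.16 quasi-likelihood F test (robust) on all 12 libraries in 1 model of 4 groups with 8 residual degrees of freedom, after the edgeR expression filter (minimum count 10, minimum total 15) and TMM scaling (factors 0.865 to 1.25). A gene was called at a Benjamini-Hochberg adjusted p under 0.05 over all 18147 genes tested, and 42 of 42 mitosis genes passed the filter. Total counts were 12.8 to 39.2 M per library.

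Values in CPM of single genes are TMM-scaled, and list sums are CPM of all counts. Log2 fold changes are fitted values. Exon bases came from the GENCODE M21 annotation of GRCm38, which matched 53186 of 55291 symbols, and promoter windows from RefSeq on GRCm38.p6, the first listed per gene. Every mitosis gene is named in the marrow; elsewhere 9 fixed genes and up to 8 with the smallest p, and from each related list the 3 smallest p and the genes called against the list's direction. Other genes are said to be picked out after their values were seen. The genes, lists and tests were chosen with earlier results of these data known. Alternatives were other scalings and filters, DESeq2 1.42.0, limma-voom (limma 3.58.1) with quality weights, dispersion without robust estimates, a 1.5-fold threshold, leaving out each library, fitting each pair of groups alone, and a replicate block. The test was also run on simulated counts with a single fixed spread and a small set of changed genes in a single group. That setting was simpler than these data, so it does not check scaling or calls under differences this wide.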

Additional observations from a re-analysis of the deposited data

Results flagged for a closer look

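By the interaction test of edgeR, the AML effect was lower in marrow than in lung for 41 of the 42 mitosis genes. Of all genes tested, 16.1% were called lower in that test. In the lung alone 2 of the 42 were called, both higher, where 1.17% of all genes tested were called higher. The log2 difference of the effects (marrow minus lung) was −5.39 for Ccnb1, −5.30 for Aunip, −4.70 for Birc5, −4.06 for Mki67, −4.03 for Plk1, −3.89 for Aurkb, −3.86 for Ccnb2 and −3.78 for Top2a. It was −3.67 for Prc1, −3.63 for Aurka, −3.48 for Smc2, −3.43 for Kif20a, −3.33 for Hmgb2, −3.09 for Mad2l1, −2.99 for Bub1b, −2.68 for Smc4 and −1.99 for Stmn1.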

How the results depend on the processing

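In the marrow 40 of the 42 mitosis genes were called under each left-out library, and 40 to 42 under the other alternatives; 0 were higher under any. The interaction was called for 38 to 42 genes when a library was left out, and marrow AML against lung AML for 39 to 42. Calls in the lung moved most. Against 2 mitosis genes in the main test, library totals gave 1, DESeq2 11, a 1.5-fold threshold 0 and the replicate block 1, and leaving out a library 0 to 5. Limma-voom called 2, Bub1b and Hmgb2, and not Ccnb1 or Aunip. Over all 18147 genes the lung test called 212 higher and 211 lower. In both directions DESeq2 called 1643 of them, limma-voom 2282 and a 1.5-fold threshold 123. A fit of the 6 lung libraries called 1239 of 16439 tested, and leaving out a library 72 to 325 of 18980 to 19158 tested. The lung fold changes of Mki67 (−0.17 to 1.07 over the libraries left out) and Smc2 (−0.14 to 0.88) turned negative without lung AML library 1. Without the 100 most abundant genes the share of the mitosis genes was 1.498% in marrow controls, 0.0457% in lung controls and 0.0671% in lung AML. In the marrow, genes called higher and lower numbered 3694 and 4263 of 18147 tested in the main test. With library totals they numbered 4645 and 2946 of 18147, and the median of all genes moved to 0.16. The calls were 3750 and 2833 of 12589 tested when 3 libraries had to reach 5 CPM. With the 6 marrow libraries alone they were 2924 and 2543 of 15088 tested. Counts over unlike numbers of genes tested are not directly comparable. The mitosis genes were lower in each. Correlations of same-numbered libraries of different groups ran from −0.195 to 0.242, and those of differently numbered libraries from −0.277 to 0.322. In no pair of groups did more than 1 of 3 match its own number best. With 3 libraries per group these values cannot show whether same-numbered libraries share a mouse. The replicate block gave 40 mitosis genes in the marrow and 42 in the interaction, and 3267 higher and 3986 lower genes over the whole marrow test. The causes of these changes were not tested. Counting precision is lowest for genes at low levels, such as Aunip in the lung, with 3 to 7 counts per control library.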
